A study of Mus musculus with 17 samples.

Results

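The S100 genes encode small calcium-binding proteins, and the 10 members described here, S100a1, S100a4, S100a6, S100a8, S100a9, S100a10, S100a11, S100a13, S100a14 and S100a16, were taken by name. Each was matched to its Ensembl gene ID, and all 10 had a row among the 43430 gene rows of the count tables. The cells were flow-sorted alveolar type 2 (AT2) cells, which line the lung alveolus and make surfactant, from C57BL/6J mice aged 2 months. In the 8 poly(A) libraries, naive mice had received vehicle (4 libraries) or ISRIB (4 libraries) 24 h earlier. ISRIB is a small molecule that restores translation held down by the integrated stress response. In the 9 total-RNA libraries the mice were naive (4 libraries) or had received bleomycin, which injures the lung and leads to fibrosis, 14 days earlier (5 libraries). The titles of these 9 libraries and of the vehicle libraries also name saline, and no dose is given in the sources used here. Libraries carry the replicate numbers of the labels. Nothing in the labels says whether a library held cells of 1 mouse or of several, so p-values measure the spread between these libraries.

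S100 proteins pair up as dimers, and each subunit folds around EF-hands, the loops that hold calcium. Calcium opens most of them so that they grip a partner, often an annexin or a part of the cytoskeleton. S100A10 is the exception, since it grips its partner without calcium, and it sits with annexin A2 at the plasma membrane. Some members leave the cell and act on receptors, and S100A8 with S100A9 is the abundant calcium-binding pair of neutrophils.

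Total counts ran from 10493574 to 15727139 in the poly(A) libraries and from 3295257 to 6333166 in the total-RNA libraries, where 21.1% to 32.2% of counts fell on ribosomal-RNA-like gene models, against 0.333% to 0.496% in the poly(A) kit. No value was compared between the kits. Levels are CPM, which scale each library's filtered counts to a common total. Called means an adjusted p under 0.05 in edgeR's quasi-likelihood test, with adjustment over all genes tested. After bleomycin, marker genes of other cell states moved. All 11 transitional epithelium markers (such as Krt8 and Cldn4) and 8 of 10 alveolar type 1 markers were called higher. Over all genes tested, 11.2% were called higher and 9.31% lower. Summed transitional markers rose from a range of 500 to 567 CPM to a range of 1020 to 1437 CPM. The summed AT2 markers were 79162 to 86488 CPM in naive libraries and 48951, 57553, 86923, 72758 and 76140 CPM in bleomycin 1 to 5. Of the 9 AT2 markers, 2 were called higher (Sftpd and Napsa) and 1 lower (Etv5). Fibroblast markers summed to 5.96 to 14.4 CPM in naive libraries and to 60.0, 128, 19.4, 32.2 and 27.9 CPM in bleomycin 1 to 5, with 3 of the 4 tested called higher. Of the 4 tested endothelial markers 1 was called higher (Cdh5 at 1.44, adjusted p = 0.0183), as was 1 of the 4 tested airway markers (Foxj1, a gene of ciliated cells, at 2.27, adjusted p = 0.00440). The part of these shifts in the results on S100 genes was not tested, and in bulk samples fewer cells of a type and less RNA per cell cannot be told apart.

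All 10 members are protein-coding genes on mouse chromosome 3 (GRCm38, GENCODE M21). In order they are S100a1 (chr3:90511034-90514392, minus strand), S100a13 (chr3:90514435-90524581), S100a14 (chr3:90526856-90528837), S100a16 (chr3:90537254-90543151), S100a4 (chr3:90603771-90606045), S100a6 (chr3:90612882-90624181), S100a8 (chr3:90668978-90670035), S100a9 (chr3:90692632-90695721, minus strand), S100a11 (chr3:93520488-93526287) and S100a10 (chr3:93555080-93564643). Those without a stated strand lie on the plus strand. Counts cover the exons of each gene as the authors' annotation had them. Of S100a4's exon bases, 302 are shared with Gm42674 on the same strand, which has no row in the tables, and no other member shares exon bases with another gene model. The pseudogene S100a11-ps on chromosome 12 had 0 counts in all 17 libraries.

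The sequence upstream of 3 members and the gap between a pair of them are shown for the following reasons. S100a11 and S100a6 were the members called after bleomycin, S100a4 was near 0 in these cells, and S100a1 and S100a13 start back to back, 42 bases apart. Sequences are RefSeq's (GRCm38.p6), 5′ to 3′ on the plus strand, at chr3:93520288-93520487, chr3:90612682-90612881, chr3:90603570-90603769 and chr3:90514393-90514434. Capitals mark matches to the motifs searched.
S100a11: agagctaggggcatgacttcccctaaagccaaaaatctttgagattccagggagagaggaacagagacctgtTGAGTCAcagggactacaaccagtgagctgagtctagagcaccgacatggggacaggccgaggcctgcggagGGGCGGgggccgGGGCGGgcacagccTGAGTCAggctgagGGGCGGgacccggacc
S100a6: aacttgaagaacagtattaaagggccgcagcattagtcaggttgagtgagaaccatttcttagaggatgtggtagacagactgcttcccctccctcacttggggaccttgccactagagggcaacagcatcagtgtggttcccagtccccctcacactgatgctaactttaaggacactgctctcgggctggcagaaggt
S100a4: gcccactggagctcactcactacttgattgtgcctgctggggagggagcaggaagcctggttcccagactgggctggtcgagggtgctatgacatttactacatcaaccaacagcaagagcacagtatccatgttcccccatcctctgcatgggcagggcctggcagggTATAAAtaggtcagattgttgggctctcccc
S100a1 to S100a13 gap: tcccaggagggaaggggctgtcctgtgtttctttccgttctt

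The motifs were searched on both strands. They were the TATA box, written TATAAA, the AP-1 motif, written TGANTCA, the TEAD motif, written GGAATG, the GC box, written GGGCGG, and the NF-kappaB motif. RefSeq windows, 250 bases before to 50 bases after a start, were present for 8 of the 10 members, all but S100a10 and S100a14. Over the 32851 windows of all genes, 13.6% held the TATA box, 7.81% the AP-1 motif, 14.7% the TEAD motif, 35.7% the GC box and 4.79% the NF-kappaB motif. No matches of different motifs overlapped in the sequences shown. S100a11 held TGAGTCA at 2 places, with first bases 136 and 38 bases before its start, and GGGCGG at 3 places, 64, 52 and 24 bases before it. None of the 5 motifs was found in the windows of S100a6, S100a1 and S100a13. S100a4 and S100a8 each held TATAAA, 31 and 30 bases before the start. S100a9 held TATAAA at its start and a GC box 223 bases before it. Of the windows of S100a16, which has more than 1 start, one held the NF-kappaB motif 249 bases before the start and another held the AP-1 motif and a GC box, 192 and 30 bases before it. A match describes letters only, and binding was not measured.

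Per kilobase of exon, S100a11 was the most abundant member in both kits. By CPM without the length correction S100a10 was above it, at 85.5 against 69.1 in vehicle and 63.2 against 41.9 in naive libraries. In vehicle libraries S100a11 stood at 135 ± 12.02 CPM per kb (SD, n = 4). S100a10 at 70.5 ± 3.91 and S100a1 at 70.3 ± 2.45 followed and did not differ beyond their spread. Then came S100a13 at 34.9 ± 3.05, S100a16 at 18.5 ± 2.62 and S100a6 at 15.2 ± 2.54, of which the last pair overlapped, and S100a14 at 7.09 ± 2.10 CPM per kb. Naive total-RNA libraries gave S100a11 at 82.0 ± 20.1, S100a10 at 52.2 ± 6.68, S100a1 at 46.5 ± 2.71, S100a13 at 31.0 ± 5.29, S100a6 at 10.2 ± 4.09, S100a16 at 5.56 ± 1.87 and S100a14 at 2.45 ± 0.84 CPM per kb (SD, n = 4). There the SDs of S100a10 and S100a1 overlapped, as did those of S100a6 and S100a16. S100g, a family gene on the X chromosome that encodes the small calcium buffer calbindin, exceeded every member, at 493 ± 13.8 CPM per kb in vehicle and 731 ± 74.8 in naive libraries. It was not called in either comparison, at -0.30 on the log2 scale after bleomycin (SE 0.17, adjusted p = 0.218 by edgeR) and of 0.00 after ISRIB (adjusted p = 0.992). Of the 8 other S100 genes listed, 7 had a row, and the 6 besides S100g were below the filter on low counts in both comparisons. Of 7 genes with an S100 domain fused to a longer protein, such as trichohyalin, 1 (Tchh) was tested in each comparison, and it was not called.

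**Figure D1:**
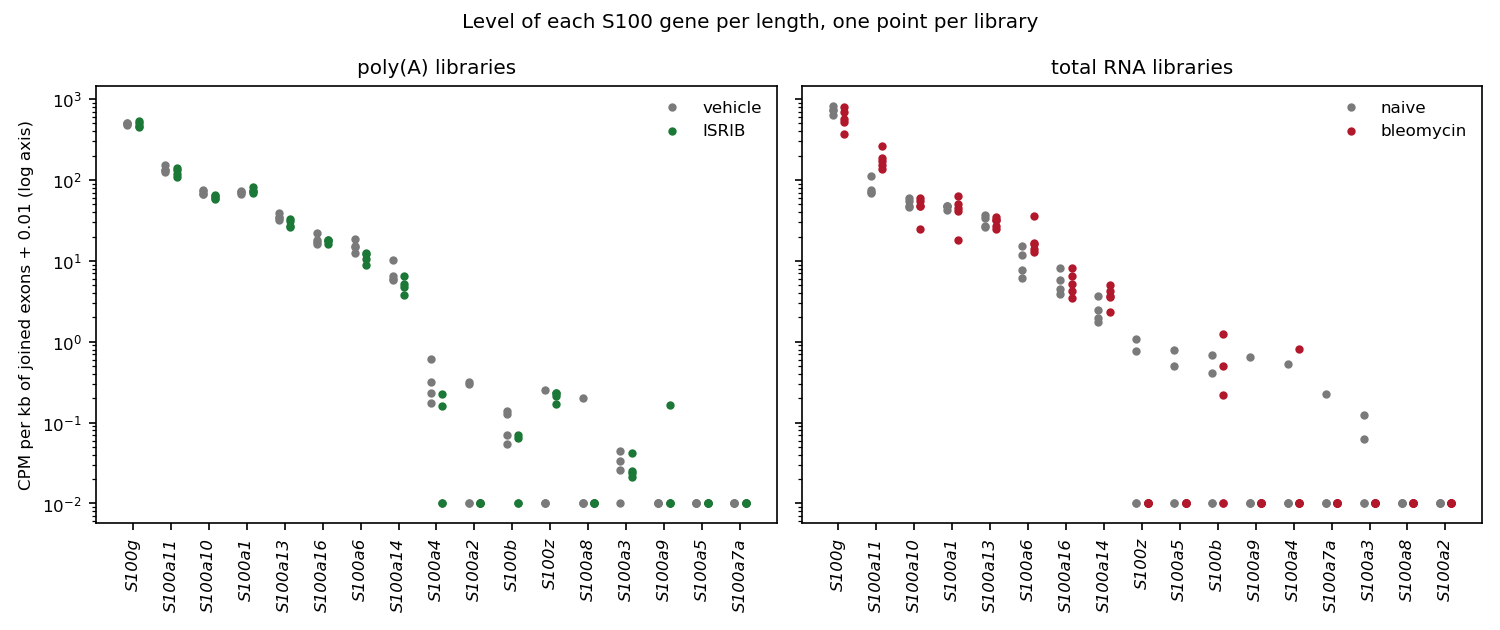
Level of each S100 gene in CPM per kilobase of exon (log axis), 1 point per library, by group; a small constant was added so that a value of 0 is drawn as the lowest row of points. S100g lies highest and S100a11 highest of the members, while S100a4, S100a8 and S100a9 sit at or near 0 in both kits.

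S100a4, S100a8 and S100a9 were below the filter on low counts in both comparisons, so that 7 of the 10 members were tested in each. S100a4, a cytoskeletal regulator widely used as a fibroblast marker, had counts of 4, 2, 2 and 1 in vehicle 1 to 4 and 2, 0, 0 and 1 in ISRIB 1 to 4. In the total-RNA kit it had 1 count in naive 3, 3 counts in bleomycin 3 and 0 elsewhere. Bleomycin 2, the library with the highest summed fibroblast markers, held 0 counts of S100a4. S100a8 had 2 counts in vehicle 3 and 0 in the other 16 libraries. S100a9 had 1 count in ISRIB 2, 1 count in naive 1 and 0 elsewhere. For S100a8, a count of 0 allows up to 0.209 CPM over the naive group and 0.118 CPM over the bleomycin group (3 counts over the summed libraries, counting error only). Of 12 neutrophil markers, 7 had 0 counts in every total-RNA library, and the list summed to 1.01 to 1.92 CPM in naive and 0.53 to 8.30 CPM in bleomycin libraries. The 13 macrophage and monocyte markers summed to 11.1 to 16.1 and 10.1 to 15.2 CPM.

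Bleomycin raised 2 members, S100a11 and S100a6, and none was called lower. The question the comparison addresses is which transcripts of AT2 cells differ in the injured lung. Among all 11223 genes tested, 20.5% were called, 11.2% were called higher and 9.31% lower, so that 2 calls among 7 tested members lie close to the background. The median log2 fold change of the 7 was -0.03, against 0.00 over all genes.

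S100a11, which binds annexin A1 and takes part in membrane repair and in the growth control of epithelial cells, stood at 35.6, 57.3, 36.6 and 38.2 CPM in naive 1 to 4 and at 95.0, 135, 79.0, 70.5 and 87.9 CPM in bleomycin 1 to 5. The 5 bleomycin values all exceeded the 4 naive values, a separation that 10.4% of all genes tested showed in that direction. The means were 41.9 ± 10.3 (SD, n = 4) and 93.5 ± 25.0 CPM (SD, n = 5), 2.22-fold apart. On the log2 scale the change was 1.15 (SE 0.19, adjusted p = 2.81e-04 by edgeR's quasi-likelihood test). It was called under all 17 alternative settings, at 0.91 to 1.35.

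S100a6, or calcyclin, which rises in dividing cells and binds the calcyclin-binding protein CACYBP, stood at 16.1, 20.7, 8.41 and 10.4 CPM in naive 1 to 4. In bleomycin 1 to 5 it stood at 17.7, 49.6, 19.4, 22.9 and 22.2 CPM. The groups overlapped, and bleomycin 2 was far above the rest. That library was also the highest of its kit in summed fibroblast (128 CPM), transitional epithelium (1437 CPM) and neutrophil markers (8.30 CPM) and in S100a11 (135 CPM). The part of these in its S100a6 value was not tested. The means were 13.9 ± 5.59 (SD, n = 4) and 26.4 ± 13.2 CPM (SD, n = 5). The log2 fold change was 0.91 (SE 0.31, adjusted p = 0.0443 by edgeR). The call rested on single libraries: without bleomycin 2 the value was 0.55 (adjusted p = 0.147), and it was also lost without naive 1, 3 or 4 (adjusted p = 0.0741, 0.148 and 0.142) and with limma-voom (adjusted p = 0.0814).

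**Figure D2:**
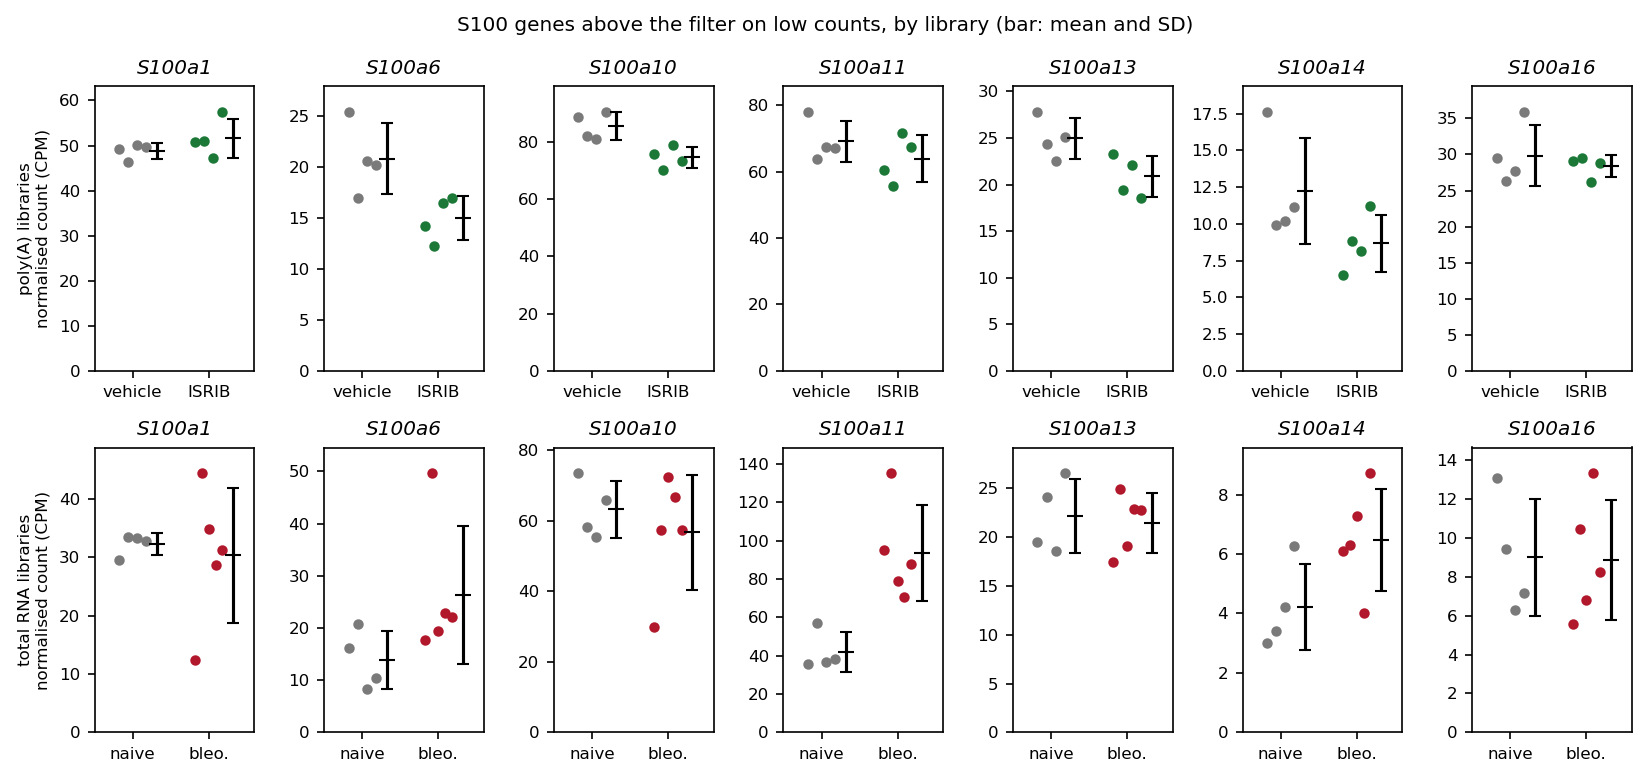
CPM of the 7 tested members in every library (points), with the group mean and SD beside them as a black bar and a linear axis from 0 in each panel; the upper row holds the poly(A) kit and the lower row the total-RNA kit. S100a11 in the 5 bleomycin libraries lies at 70.5 to 135 CPM, above all 4 naive libraries, and S100a6 in bleomycin 2 stands apart at 49.6 CPM.

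The remaining 5 tested members did not pass the test after bleomycin. S100a10, the annexin A2 partner, read 73.5, 58.1, 55.5 and 65.9 CPM in naive 1 to 4 and 29.9, 57.4, 72.5, 66.8 and 57.3 CPM in bleomycin 1 to 5, with bleomycin 1 lowest. Its log2 fold change was -0.15 (SE 0.19, adjusted p = 0.632 by edgeR). S100a1, a regulator of calcium cycling in heart muscle, read 29.5 to 33.5 CPM in naive libraries and 12.4, 44.4, 34.8, 28.8 and 31.2 CPM after bleomycin, again with bleomycin 1 lowest. Its log2 fold change was -0.08 (SE 0.24, adjusted p = 0.853). S100a13, which helps release FGF1 from cells and starts 42 bases from S100a1, read 18.6 to 26.5 CPM in naive and 17.5 to 24.9 CPM in bleomycin libraries, and changed by -0.05 on the log2 scale (SE 0.18, adjusted p = 0.872). S100a16, a broadly expressed member, read 13.1, 9.40, 6.31 and 7.15 CPM in naive 1 to 4 and 5.55, 10.5, 6.81, 13.3 and 8.23 CPM in bleomycin 1 to 5. Both groups covered almost the same range, and the log2 fold change was -0.03 (SE 0.31, adjusted p = 0.968). S100a14, an epithelial member, read 3.02, 3.42, 4.204 and 6.26 CPM in naive 1 to 4 and 6.08, 6.32, 7.28, 4.02 and 8.71 CPM in bleomycin 1 to 5. The groups overlapped, and it changed by 0.63 on the log2 scale (SE 0.37, adjusted p = 0.241). S100a14 rested on 60 counts in all naive libraries together and 173 in all bleomycin libraries together, so its depth limits what can be detected.

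The ratio of S100a11 to another member within a library does not depend on the scaling, and it is given as a description with no test, since S100a11 was chosen for it after its values were seen. The ratio of S100a11 to S100a10 was 0.484 to 0.985 in naive libraries and 3.18, 2.35, 1.09, 1.06 and 1.53 in bleomycin 1 to 5, with no overlap. The mean log2 ratio differed between the groups by 1.36 against S100a10, by 1.35 against S100a1, by 1.20 against S100a13, by 1.18 against S100a16, by 0.52 against S100a14 and by 0.25 against S100a6. The ratios to S100a16, S100a14 and S100a6 had overlapping groups.

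**Figure D3:**
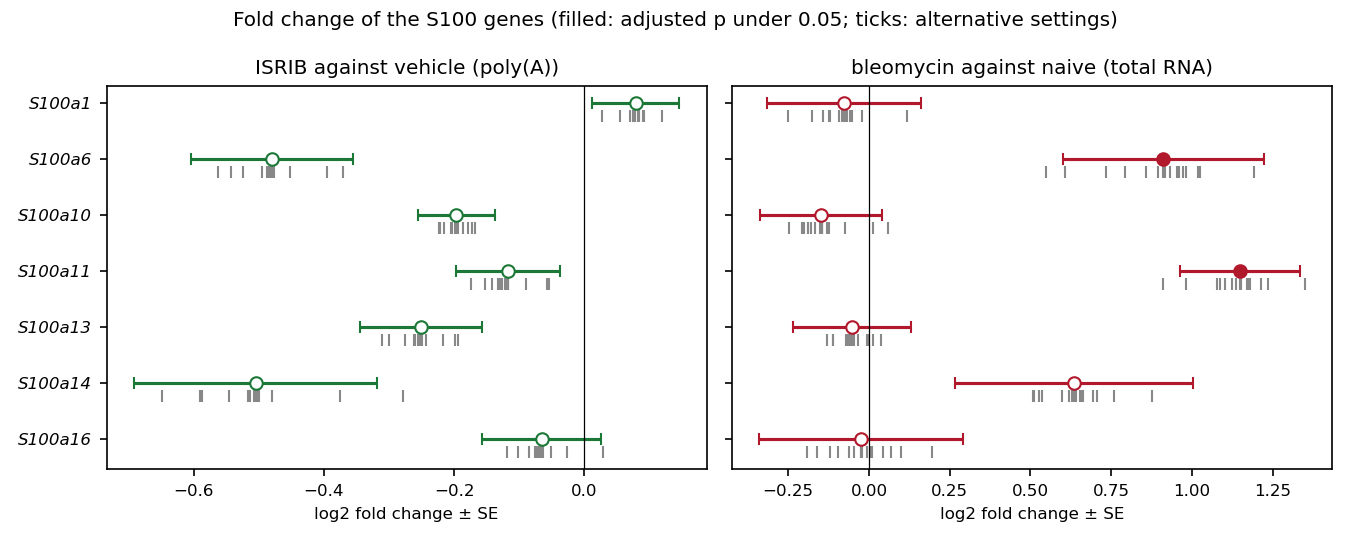
Log2 fold change of each tested member (circles, with bars of 1 SE; filled where adjusted p was under 0.05) after ISRIB and after bleomycin, on different x axes, with the values under the alternative settings as grey ticks. S100a11 at 1.15 and S100a6 at 0.91 lie highest after bleomycin, and after ISRIB 6 of 7 members lie below 0 with S100a1 at 0.08.

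After ISRIB no member was called by edgeR, with 7 tested, against 2.2% of all 12054 genes (1.1% lower). S100a6, S100a10, S100a13 and S100a14 had an unadjusted p under 0.05, all lower, where 16% of all genes tested had one and 8.11% were lower at that level. DESeq2 called 1 member (S100a6) and limma-voom 0. The median log2 fold change of the 7 was -0.20, against 0.00 over all genes. S100a6 had the lowest adjusted p of the 7. It stood at 25.4, 17.0, 20.7 and 20.2 CPM in vehicle 1 to 4 and at 14.2, 12.3, 16.5 and 17.0 CPM in ISRIB 1 to 4, so that the groups met at 17.0 CPM. The log2 fold change was -0.48 (SE 0.12, adjusted p = 0.0546 by edgeR), and the adjusted p fell under 0.05 under 5 of 14 alternatives, among them DESeq2 (0.0175), upper-quartile factors (0.0473), no filter (4.33e-04) and leaving out vehicle 2 (0.0457).

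S100a10 was lower in all 4 ISRIB libraries (75.9, 70.2, 78.8 and 73.3 CPM) than in any vehicle library (88.6, 82.0, 80.9 and 90.4 CPM), as were 4.39% of all genes tested. Its log2 fold change was -0.20 (SE 0.06, adjusted p = 0.0980 by edgeR). S100a14 at -0.50 (SE 0.19, adjusted p = 0.186) and S100a13 at -0.25 (SE 0.09, adjusted p = 0.189) had overlapping groups, with S100a14 highest in vehicle 1, at 17.6 CPM against 9.95 to 11.2 in vehicle 2 to 4. Without vehicle 1 the value of S100a14 was -0.28 (adjusted p = 0.495 by edgeR). S100a11, the member that rose after bleomycin with groups apart, read 77.9, 63.8, 67.5 and 67.1 CPM in vehicle 1 to 4 and 60.5, 55.7, 71.6 and 67.3 CPM in ISRIB 1 to 4. Its groups overlapped, at -0.12 (SE 0.08, adjusted p = 0.510). S100a16 was -0.07 (SE 0.09, adjusted p = 0.800) and S100a1 0.08 (SE 0.07, adjusted p = 0.624). The back-to-back pair S100a1 and S100a13 thus had values of opposite sign, neither of which passed the test, and the difference between them was not tested. S100a1 read 49.3, 46.3, 50.0 and 49.7 CPM in vehicle 1 to 4 and 50.7, 51.0, 47.2 and 57.5 CPM in ISRIB 1 to 4, while S100a13 read 27.8, 24.3, 22.6 and 25.1 CPM and then 23.3, 19.5, 22.1 and 18.6 CPM. Transitional epithelium markers moved the same way here: Krt19 and Hbegf were called lower, and 10 of 11 had negative values. Over all genes tested, 1.1% were called lower and 50% had negative values. Of the alveolar type 1 markers 7 of 10 were negative, and of the AT2 markers 5 of 9. By edgeR, Etv5 (-0.28, adjusted p = 0.00817) and the macrophage marker Chil3 (-1.84, adjusted p = 0.0440) were also called lower. Chil3 was scarce, at a mean of 1.24 CPM in vehicle and 0.35 CPM in ISRIB libraries. The part of these shifts in the S100 values was not tested.

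Of the proteins that S100s bind inside the cell, 9 of 10 genes were tested. After ISRIB, 1 was called, against 2.2% of all genes tested, and after bleomycin, 2 were called higher and 1 lower. The shares over all genes tested after bleomycin were 11.2% higher and 9.31% lower. Annexin A1 (Anxa1), the partner of S100A11, went from 66.0 ± 12.3 (SD, n = 4) to 211 ± 66.8 CPM (SD, n = 5), up by 1.68 on the log2 scale (SE 0.19, adjusted p = 7.88e-06 by edgeR). Myh9, the heavy chain of nonmuscle myosin that S100A4 binds, was higher by 0.84 (SE 0.13, adjusted p = 2.30e-04), and Fgf1, whose export S100A13 aids, was lower, at -0.66 (SE 0.13, adjusted p = 0.00151). Anxa2, the partner of S100A10, was 0.34 (adjusted p = 0.0783). After ISRIB Cacybp, the partner of S100A6, was called higher at 0.55 (SE 0.13, adjusted p = 0.0286), with overlapping groups, and the call was lost without vehicle 1, 2 or 3 or ISRIB 3 or 4 (adjusted p = 0.101, 0.105, 0.0511, 0.0800 and 0.0903).

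**Figure D4:**
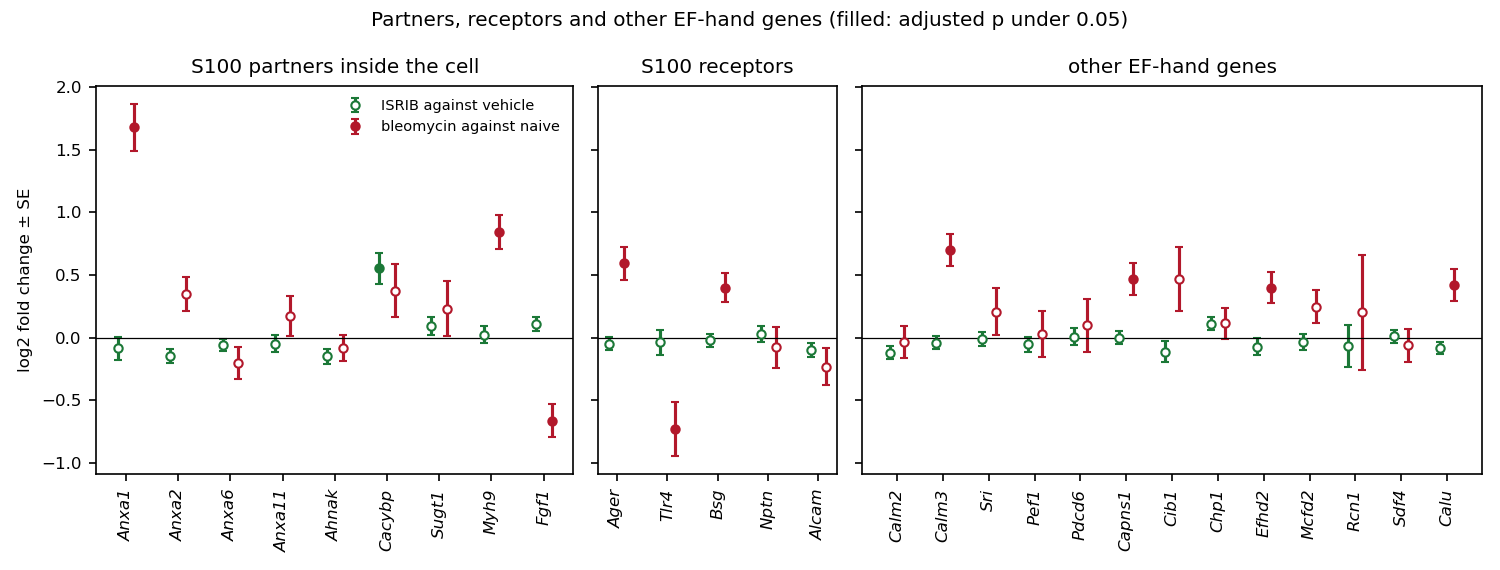
Log2 fold changes of genes encoding S100 partners, S100 receptors and other EF-hand proteins (1 of the listed genes is not drawn; circles, with bars of 1 SE; filled where adjusted p was under 0.05) in both comparisons. Anxa1 lies highest after bleomycin at 1.68, and Fgf1 at -0.66 and Tlr4 at -0.73 lie lowest among the called genes.

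All 5 receptor genes were tested, and after bleomycin, 2 were called higher and 1 lower. Over all genes tested, 11.2% were called higher and 9.31% lower after bleomycin. After ISRIB 2.2% of all genes tested were called, and 16% had an unadjusted p under 0.05. After bleomycin Ager, the receptor for advanced glycation end products and an alveolar type 1 marker, was higher by 0.59 (SE 0.13, adjusted p = 0.00364), Bsg (basigin) by 0.40 (SE 0.12, adjusted p = 0.0202), and Tlr4, a receptor of S100A8 and S100A9, was lower at -0.73 (SE 0.22, adjusted p = 0.0230). The calls of Bsg and Tlr4 were each lost without naive 1, 2 or 4 (adjusted p = 0.0502 to 0.0825), and that of Tlr4 also with bleomycin 1 and 2 both left out (adjusted p = 0.0845). After ISRIB edgeR called 0 of the 5, and 0 had an unadjusted p under 0.05. Of 14 other EF-hand genes, 5 were called higher after bleomycin, where 11.2% of all genes tested were. Among the 5 were Calm3 at 0.70, Capns1 at 0.47, Calu at 0.42 and Efhd2 at 0.40. None of the 14 was called after ISRIB by edgeR, where 1 had an unadjusted p under 0.05. Calm3, which encodes calmodulin, was called under all 17 alternatives, whereas the calls of Capns1, Calu and Efhd2 were each lost on leaving out some single libraries (adjusted p up to 0.0601, 0.0869 and 0.119).

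Between S100a1 and S100a10 on chromosome 3 lie 108 gene rows, of which 10 are members. Among the others, 5 were tested after ISRIB and 3 after bleomycin. Sprr1a (chr3:92483952-92485895), a cornified-envelope gene, was the only one called in each: lower after ISRIB at -0.70 (SE 0.15, adjusted p = 0.0241) and higher after bleomycin at 1.17 (SE 0.25, adjusted p = 0.00266). The ISRIB call was lost without vehicle 1, 2 or 3 or ISRIB 1 (adjusted p = 0.0573 to 0.0823). Over all genes tested, 1.1% were called lower after ISRIB and 11.2% higher after bleomycin.

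The gene whose log2 CPM most resembled each member's over the libraries of a kit was found, as a description without a test. The search covered the tested genes with an approved-style symbol and left out Gm and Rik models, unnamed IDs and pseudogenes. In the 9 total-RNA libraries S100a11 was most like Sesn2 (Pearson r = 0.989), S100a6 like Ubac2 (0.963), S100a1 like Casp6 (0.972), S100a10 like Hddc3 (0.957), S100a13 like Decr2 (0.904), S100a14 like Man2b1 (0.952) and S100a16 like Impa1 (0.906). In the 8 poly(A) libraries S100a10 was most like Pls1 (0.990), S100a14 like Plod1 (0.986), S100a6 like Mtch2 (0.973), S100a13 like Cpsf1 (0.969), S100a1 like Rinl (0.964), S100a16 like Itgb3bp (0.945) and S100a11 like Zfp157 (0.944). No member had the same most similar gene in both kits, and none was most like another member. Each r spans both groups of a kit and libraries of unlike depth, so a difference between groups can enter it. With group means removed, the r of S100a11 with Sesn2 was 0.950 and that of S100a1 with Casp6 was 0.987 in the total-RNA libraries. The highest r among the genes searched is high by selection.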

How the data were processed

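RNA from sorted AT2 cells was sequenced in 17 libraries. Each kit has a deposited table of whole-number counts by gene, not normalized. Per the submitters' processing notes, bcl2fastq 2.19.1, FastQC, Trimmomatic 0.36, STAR 2.6.0 and HTSeq 0.11.2 were used, with mm10. A strand setting and an annotation for the counting were not given in the sources used here; thus antisense reads cannot be told apart. Symbols and positions came from GENCODE M21 (42546 of 43430 IDs). Within each kit, counts were filtered (filterByExpr, minimum count 10, minimum total 15), scaled by TMM and tested two-sided with edgeR 4.0.16 quasi-likelihood in R 4.3.3, with Benjamini-Hochberg adjustment. CPM use effective library sizes, and levels per kb use joined exon lengths. SE is the log2 fold change over the root of F. Alternatives used DESeq2 1.42.0, limma-voom (limma 3.58.1), other scalings and filters, thresholds, the replicate block and left-out libraries. Text names all members, called genes of the partner, receptor, EF-hand and other S100 lists, called neighbours, and the most similar gene per member. Single marker genes were named after their values were seen. Members and lists were chosen with earlier results of these data known. The test was checked on simulated data. Of simulated log2 changes of 0.5, it recovered 70.1% in the ISRIB design and 6.84% in the bleomycin design. Of changes of 1, it recovered 89.9% and 62.9%. For 1 named gene the values are not reported here. Depth limits low genes, and the floor of 3 counts covers counting error only.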

Additional observations from a re-analysis of the deposited data

Results flagged for a closer look

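Dixon's test was run on 28 groups of a member's log2 CPM, and chance marks about 1 in 20 groups. S100a6 in bleomycin 2 stood apart from the other bleomycin libraries, at 49.6 CPM against 17.7 to 22.9, with a gap of 0.753 of the group's range. S100a10 in bleomycin 1 stood low at 29.9 CPM against 57.3 to 72.5, with a gap of 0.735. S100a11 in naive 2 stood high at 57.3 CPM against 35.6 to 38.2, with a gap of 0.852.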

How the results depend on the processing

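S100a11 stayed called higher after bleomycin under all 17 alternatives (adjusted p up to 0.00247), and S100a6 under 11 of 17 (0.55 to 1.19 over all 17). Members called after bleomycin numbered 2 and became 1 (S100a11) with limma-voom, at an adjusted p under 0.01, and with bleomycin 1 and 2 both left out, an alternative chosen after seeing the data, where S100a6 was 0.61 (adjusted p = 0.112). Leaving out 1 library gave 1 to 2 members, with 1 without naive 1, 3 or 4 or bleomycin 2. After ISRIB 0 members were called, and this became 1 (S100a6) with upper-quartile factors, DESeq2 and the replicate block, 2 (S100a6 and S100a14) without a filter, 2 (S100a6 and S100a10) at an adjusted p under 0.10, and 0 to 1 on leaving out 1 library (1 without vehicle 2). Genes called after ISRIB numbered 265, against 408 with DESeq2 and 648 without a filter. Leaving out 1 library gave 86 to 269, with 86 without vehicle 1, 102 without vehicle 2 and 159 without ISRIB 4. Genes called after bleomycin numbered 2304, and 1554 to 2589 under its alternatives.

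Signs turned only for values near 0 that were not called. After bleomycin S100a16 was 0.0063 with the replicate block, 0.044 with bleomycin 1 and 2 both left out, and 0.0021 to 0.20 without naive 1, naive 2, bleomycin 1, bleomycin 3 or bleomycin 5 (-0.19 at the lowest, without bleomycin 4). Leaving out 1 library moved S100a13 between -0.13 and 0.038, S100a1 between -0.25 and 0.12 and S100a10 between -0.25 and 0.012, and S100a10 was 0.058 with bleomycin 1 and 2 both left out; all 3 were above 0 without bleomycin 1, S100a13 also without naive 4. After ISRIB, leaving out 1 library moved S100a16 between -0.12 and 0.028 (above 0 without vehicle 4) and S100g between -0.052 and 0.034 (above 0 without vehicle 2, vehicle 3, ISRIB 2 or ISRIB 4). The causes were not tested. Without the length correction S100a10 ranked above S100a11 in both kits.

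Libraries with the same replicate number did not deviate together, with correlations of -0.109 to 0.0849 over the 4 pairs of the ISRIB comparison and -0.0393 to 0.0474 over the 4 of the bleomycin comparison. With the replicate block 277 and 2099 genes were called, S100a6 after ISRIB had an adjusted p of 0.0370 by edgeR, and no other member changed its call; bleomycin 5 has no partner and dropped out. The total-RNA depth limits S100a14 and S100a16, the tested members with the fewest counts.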
